A study of Rattus norvegicus with 4 samples.

Results

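The genes described are 9 genes of blood protein cascades, measured in the livers of rats given ciprofibrate. They are the complement genes C1qb, C1qc, C1r, C1s, C3, C4b, C4bpb and Cfi, and F2, which encodes prothrombin. The choice was by gene symbol, and any spot whose probe annotation lists one of the 9 symbols was taken. That gave 15 of the 7688 spots on each array, printed from 9 clones, 1 clone for each gene. On the array C4b shares its clone with C4a, a near-identical gene, and no spot of this clone carried a ratio on any array, so 8 of the 9 genes have values. The study compared total liver RNA of 4 female Fischer rats, each given ciprofibrate at 50 mg per kg of body weight daily over 60 days, with 1 pool of total liver RNA from 5 control rats. Each of 4 two-colour cDNA arrays set RNA labelled as from a treated rat, without saying which, against that pool. Ciprofibrate belongs to the fibrates, drugs that lower blood lipids by way of the nuclear receptor PPARα, and in rodents it makes liver peroxisomes proliferate.

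Complement is a chain of plasma proteins that marks microbes and dying cells for removal. In the classical pathway, C1q binds its target and activates the proteases C1r and C1s, which cleave C4 and C2 to build an enzyme that cleaves C3. C4b-binding protein takes that enzyme apart, and factor I cuts its C4b part as well as C3b. Hepatocytes secrete most of these proteins and prothrombin, the precursor of the clotting protease thrombin, while C1q comes largely from macrophages, which in liver are the Kupffer cells.

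The ratios behind these results carry some limits that hold for the whole series. Channel 1 is labelled as treated liver and channel 2 as control liver, without naming the dyes, which leaves the ratio's direction unsettled. Of 10 textbook genes of the peroxisome proliferator response with a value on all 4 arrays, 6 had a positive and 4 a negative mean, and 3 passed the test as positive and 1 as negative. On the channel order and the narrow majority among the 10 genes, positive values are taken as likely higher in treated rats. If the direction were the opposite, every sign here would turn. No label says which rat is on which array, and the tests treat the arrays as separate rats; with a shared rat the p-values would measure technical spread. The pool is 1 control sample, and variation among the control rats is in none of the tests. Array 2 stood apart, with correlations of 0.462 to 0.529 with the other arrays over all spots, against 0.669 to 0.759 among those. Without it 1767 clones were called, against 1344 with all arrays, and 6 of the 8 complement and prothrombin clones against 4. Ratios also went with the place of a spot on the slide. In the layout read from the values, 8 printing blocks in 2 columns, the median clone of the left column was at 0.15 and that of the right column at -0.16 (log2, mean over the arrays). Positive and negative calls made up 25.5% and 8.13% of the clones in the left column, and 1.39% and 22.1% in the right one.

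Among the complement genes and F2, C1qb and F2 had the lowest ratios and passed the test as negative, while C1r and C1qc passed it as positive at smaller values. C1s, C3, C4bpb and Cfi did not pass. The 2 positive and 2 negative calls among the 8 tested clones stand against 13.6% positive and 15.0% negative calls among all 4704 clones tested (limma, Benjamini-Hochberg adjusted p under 0.05). Ratios are in log2 with each array centred on its median. The 3 clones with the highest means, C1r, C4bpb and C1qc, were printed in left block 3, and the 3 with the lowest, C1qb, F2 and C3, in right block 6. After subtraction of a smooth surface over the spot positions, C1qb and F2 were again negative calls, C1r and C1qc were no longer called, and Cfi became a positive call. Against that, 2.85% of all clones were positive and 11.3% negative calls with the surface subtracted.

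**Figure D1:**
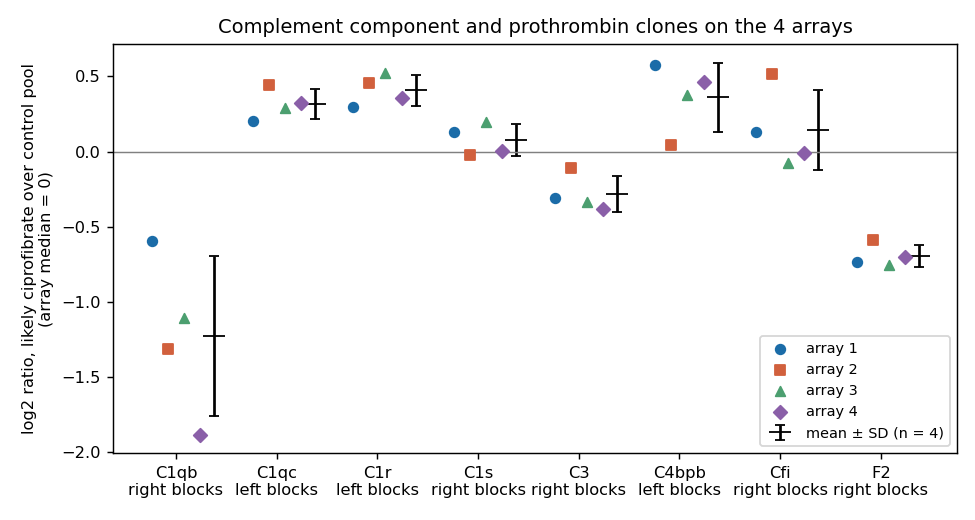
Log2 ratios of the 8 measured clones on arrays 1 to 4 (points), with the mean and SD (black, n = 4), ordered by gene symbol. C1qb and F2 lie below 0 on every array, and C1qc and C1r lie above 0 on every array. The second line under each symbol gives the column of printing blocks that held the clone.

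C1qb encodes the B chain of C1q. Its clone had log2 ratios of -0.60, -1.32, -1.11 and -1.89 on arrays 1 to 4. All 4 values were negative, with array 4 farthest from 0 and array 1 nearest. The mean was -1.23 ± 0.53 (SD, n = 4), a 2.34-fold difference, with a limma adjusted p of 0.00669. It was the lowest of the 8 clones and ranked 72 from the lowest among the 4704. The spread came from 1 of its 2 spots. Spot 1 was at -0.05, -1.40, -0.93 and -2.50, and spot 2 at -1.17, -1.26, -1.35 and -1.34. Spot 2 was low on every array within a narrow range, whereas spot 1 on array 1 lay near 0. Tested alone, both spots were negative calls, with a limma adjusted p of 0.0319 for spot 1 and 0.000401 for spot 2. Their mean difference of 0.71 was larger than that of 99.0% of the 1591 clones with 2 spots measured on all arrays, where the median was 0.10. The median of the spots printed around them, averaged over the 4 arrays, was 0.02 for spot 1 and -0.01 for spot 2. The C1qb spots were low against their surroundings, except spot 1 on array 1, where the surrounding median was -0.04. With the position surface subtracted the clone was at -1.20 ± 0.58 (limma adjusted p = 0.0201). That call ended when array 2 or array 3 was also left out (adjusted p = 0.0623 and 0.0515), at means of -1.15 and -1.26.

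C1qc encodes the C chain of the same C1q molecule, and its gene lies next to C1qb on rat chromosome 5, with C1qa on its other side. Its single spot went the other way, with log2 ratios of 0.20, 0.44, 0.29 and 0.33 on arrays 1 to 4. All 4 were positive, at a mean of 0.31 ± 0.10 (SD, n = 4), a 1.24-fold difference (limma adjusted p = 0.0442). The call ended without array 1, 3 or 4, at means of 0.35, 0.32 and 0.31 (adjusted p = 0.0859, 0.161 and 0.142). The spots printed around it had a median of 0.14, and with the position surface subtracted the clone was at 0.20 ± 0.12 (adjusted p = 0.108). The difference C1qb minus C1qc within an array was -0.80, -1.76, -1.40 and -2.21. C1qb was thus below C1qc on every array, at a mean difference of -1.54 ± 0.60 (SD, n = 4), and of -1.41 ± 0.60 with the surface subtracted. With the median of each block subtracted the difference was -1.15 ± 0.55, nearest to 0 on array 1 (-0.53). The exact two-sided sign-flip permutation test gave p = 0.125, the smallest that 4 arrays allow, here and for 2 other pairs below (0.125 also after Benjamini-Hochberg adjustment over the 3 pairs). That these clones carry 2 chains of C1q rests on the probe annotation, which was not checked against clone sequences. No clone of C1qa was analysed here.

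Few macrophage markers were on hand beside the C1q chains. Of 20 listed genes of macrophages and Kupffer cells, 3 were tested. With clones of one gene averaged, 17.1% of the 2644 genes tested were positive and 16.6% negative calls. Those shares were 4.20% and 13.5% with the position surface subtracted. Ctss, a lysosomal protease, was positive at 0.44 ± 0.15 (SD, n = 4). Cd74, the invariant chain of antigen presentation, was negative at -0.35 ± 0.07, and Lyz2, a lysozyme named after its value was seen because it was the one left, was at 0.18 ± 0.19. The call of Ctss ended without array 3 or 4 (0.44 and 0.39, limma adjusted p = 0.0717 and 0.0672) and that of Cd74 without array 1, 3 or 4 (-0.32, -0.35 and -0.35, adjusted p = 0.0801, 0.106 and 0.0817). With the position surface subtracted Ctss was at 0.10 ± 0.15 and no longer called (limma adjusted p = 0.389), Cd74 was at -0.62 ± 0.13 and called (adjusted p = 0.00692), and Lyz2 was at 0.25 ± 0.21. The part of macrophage content in the C1q ratios was not tested. In whole liver, fewer cells of a type and less RNA per cell cannot be told apart.

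**Figure D2:**
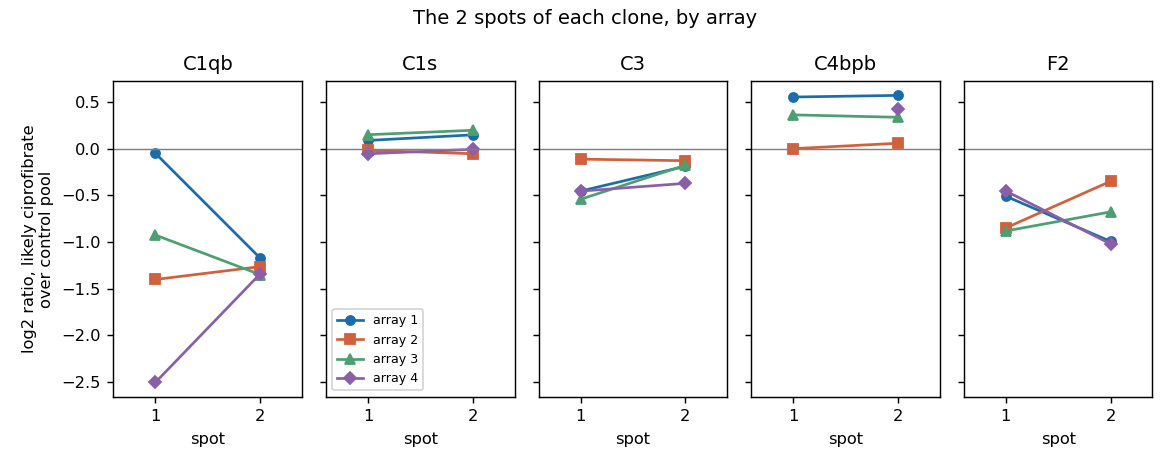
Log2 ratios of the 2 spots of each clone printed in duplicate, 1 line for each array. The spots of C1s and C4bpb lie close together, while C1qb spot 1 spans -2.50 to -0.05 and C1qb spot 2 stays between -1.35 and -1.17; C4bpb spot 1 had no ratio on array 4.

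C1r, the protease that activates C1s, had a single spot, with log2 ratios of 0.30, 0.46, 0.52 and 0.35 on arrays 1 to 4. It was positive on every array, with a mean of 0.41 ± 0.10 (SD, n = 4), a 1.33-fold difference (limma adjusted p = 0.0212). The call ended without array 1, 3 or 4, at means of 0.44, 0.37 and 0.42 (adjusted p = 0.0546, 0.122 and 0.0704). In block 3, where C1r, C1qc and C4bpb were printed, 32.6% of the clones were positive and 7.47% negative calls. The spots around C1r had a median of 0.18, and with the surface subtracted C1r was at 0.26 ± 0.09 (adjusted p = 0.0600), again positive on all 4 arrays. C1s, which cleaves C4 and C2, lies next to C1r on chromosome 4. Its clone was at 0.13, -0.02, 0.20 and 0.00 on arrays 1 to 4, close to 0 throughout. The mean of 0.08 ± 0.11 did not pass the test (adjusted p = 0.572) in a block where 2.55% of the clones were positive and 16.4% negative calls, and its 2 spots differed by 0.05 on average. C1r exceeded C1s on every array, by 0.16, 0.48, 0.32 and 0.35. The mean difference was 0.33 ± 0.13 as deposited, 0.18 ± 0.13 with the position surface subtracted and 0.08 ± 0.18 with the median of each block subtracted, where 2 of the 4 arrays turned negative.

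C3 is the central component, which all pathways cleave. Its clone had log2 ratios of -0.31, -0.11, -0.33 and -0.38 on arrays 1 to 4. All were below 0 and array 2 was nearest to it. The mean of -0.28 ± 0.12 (SD, n = 4), a 1.22-fold difference, missed the threshold (limma adjusted p = 0.0641), and without array 2 it was -0.34 and passed (adjusted p = 0.0222). Its spots had means of -0.39 ± 0.19 and -0.22 ± 0.11. The first of them passed the test alone (adjusted p = 0.0337) and the second did not (adjusted p = 0.124). In block 6, which held C1qb, C3, Cfi and F2, the median clone was at -0.21, and 26.5% of the clones were negative and 0.171% positive calls. C3 ranked 239 from the lowest of 584 clones in that block, C1qb 13 and F2 56. With the surface subtracted C3 was at -0.18 ± 0.07 (adjusted p = 0.111). For C4b and C4a, which the classical pathway cleaves before C3, no ratio was measured in either spot. A clone with both spots lacking a ratio on all arrays was not rare, with 209 of the 1911 clones listed with 2 spots.

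The 2 regulators lay in different columns of the slide. C4bpb, the beta chain of C4b-binding protein, was at 0.58, 0.04, 0.37 and 0.46 on arrays 1 to 4. Array 2 stood near 0 and the other 3 were clearly positive. The mean was 0.36 ± 0.23 (SD, n = 4, limma adjusted p = 0.0502). Without array 2 it was 0.47 and passed (adjusted p = 0.0125). The spots around its 2 spots had medians of 0.29 and 0.34, close to its own ratio. With the position surface subtracted C4bpb was at 0.01 ± 0.20 (adjusted p = 0.964).

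Cfi encodes factor I, the protease that cuts C3b and C4b. Its single spot had log2 ratios of 0.13, 0.52, -0.07 and -0.01 on arrays 1 to 4. Only array 2 stood away from 0, and the mean of 0.14 ± 0.26 (SD, n = 4) did not pass (limma adjusted p = 0.410). The spots around it were low, with a median of -0.44. With the surface subtracted Cfi was at 0.27, 0.58, 0.41 and 0.43. It was then positive on all 4 arrays at 0.42 ± 0.12 and passed the test (adjusted p = 0.0236). With the block median subtracted it was at 0.32 ± 0.15 and also passed (adjusted p = 0.0471). The surface call ended when array 1, 3 or 4 was also left out, at means of 0.47, 0.43 and 0.42 (adjusted p = 0.0527, 0.119 and 0.0901).

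**Figure D3:**
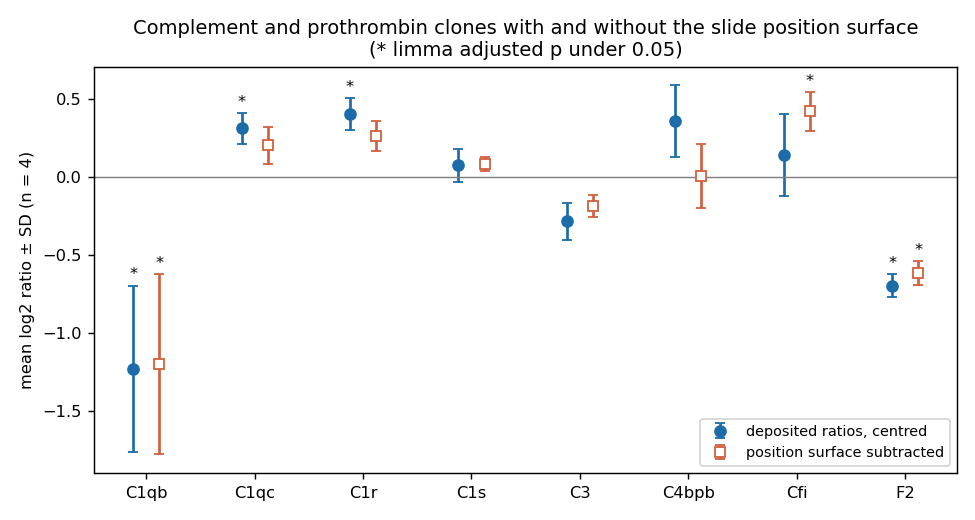
Mean log2 ratio ± SD (n = 4) of each clone from the deposited, centred ratios (filled circles) and after subtraction of a smooth surface over the spot positions (open squares). Stars mark a limma adjusted p under 0.05; C1qb and F2 carry one in both, C1qc and C1r in the first and Cfi in the second.

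F2, prothrombin, had the most even negative ratio of the 8 clones once its 2 spots were averaged. Its clone was at -0.74, -0.59, -0.75 and -0.70 on arrays 1 to 4. The 4 values lay within a narrow range and none was near 0. The mean was -0.70 ± 0.08 (SD, n = 4), a 1.62-fold difference (limma adjusted p = 0.00450), and F2 ranked 279 from the lowest of the 4704 clones. Its separate spots were less even. Their mean difference of 0.44 was larger than that of 96.3% of the 1591 clones with 2 spots measured on all arrays. Spot 1 was at -0.51, -0.85, -0.88 and -0.45, and spot 2 at -0.99, -0.35, -0.68 and -1.02. Where one spot was lower the other was higher, so the SD of the clone is smaller than that of either spot (0.22 and 0.31). Both were negative calls when tested alone (adjusted p = 0.00901 and 0.00995). The spots around them had medians of -0.18 and -0.08. F2 stayed a negative call without each single array, at means between -0.73 and -0.68 (adjusted p from 0.00379 to 0.0314), and with the position surface subtracted, at -0.62 ± 0.08 (adjusted p = 0.00627). F2 was below C3 on every array, by 0.43, 0.48, 0.42 and 0.32, and the mean difference F2 minus C3 was -0.41 ± 0.07. With the surface subtracted it was -0.43 ± 0.06.

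**Figure D4:**
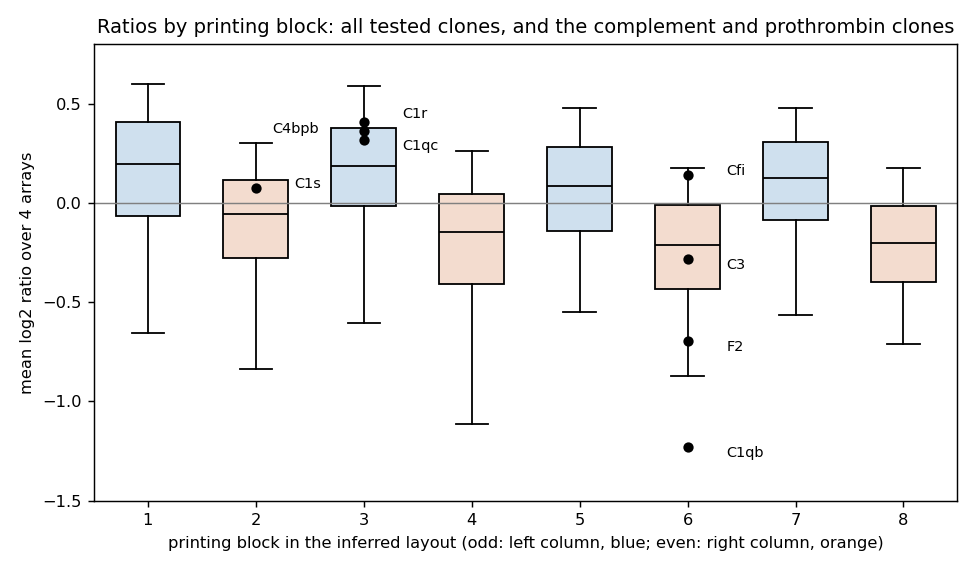
Mean log2 ratio over the 4 arrays of all 4704 tested clones by printing block (boxes, quartiles; whiskers, percentiles 5 and 95), with the complement and prothrombin clones as black points. C1qb lies under the lower whisker of block 6, F2 within it, and the C1r, C4bpb and C1qc points near the upper quartile of block 3.

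Promoter sequences from RefSeq (GRCr8, 250 bases before to 50 after each gene's start) matched 7 of the 9 genes. Those of the 3 genes negative on every array, F2, C1qb and C3, are shown with that of C1r, so that genes with opposite ratios stand together. C1r had the highest mean without the position surface subtracted. With the surface subtracted the highest was Cfi, at 0.42, and neither C1r nor C3 was called. Capitals mark AGGTCA, the half-site that nuclear receptors such as PPARα bind in pairs, and TTNNGNAA, the core bound by C/EBP factors of liver and acute phase genes, each on either strand. The stretches are chr3:98065197-98065496 (minus strand) for F2, chr5:154407778-154408077 (minus strand) for C1qb, chr9:2201290-2201589 (minus strand) for C3 and chr4:159098763-159099062 (plus strand) for C1r.
F2: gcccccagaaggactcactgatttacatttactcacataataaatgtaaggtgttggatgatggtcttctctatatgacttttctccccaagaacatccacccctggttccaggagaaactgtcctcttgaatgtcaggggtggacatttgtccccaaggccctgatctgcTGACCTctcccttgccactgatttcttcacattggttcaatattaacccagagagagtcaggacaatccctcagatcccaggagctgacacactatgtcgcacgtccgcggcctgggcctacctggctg
C1qb: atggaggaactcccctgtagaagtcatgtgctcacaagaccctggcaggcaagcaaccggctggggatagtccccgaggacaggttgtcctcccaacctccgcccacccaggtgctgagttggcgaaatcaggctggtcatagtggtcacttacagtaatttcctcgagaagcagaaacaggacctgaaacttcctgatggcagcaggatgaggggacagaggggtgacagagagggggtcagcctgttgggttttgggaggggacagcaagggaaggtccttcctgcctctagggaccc
C3: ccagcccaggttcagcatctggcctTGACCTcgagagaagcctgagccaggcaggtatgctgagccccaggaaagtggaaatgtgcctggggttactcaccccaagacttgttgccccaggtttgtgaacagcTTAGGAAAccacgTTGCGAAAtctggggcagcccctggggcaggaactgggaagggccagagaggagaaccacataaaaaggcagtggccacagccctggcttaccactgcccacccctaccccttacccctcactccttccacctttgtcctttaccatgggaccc
C1r: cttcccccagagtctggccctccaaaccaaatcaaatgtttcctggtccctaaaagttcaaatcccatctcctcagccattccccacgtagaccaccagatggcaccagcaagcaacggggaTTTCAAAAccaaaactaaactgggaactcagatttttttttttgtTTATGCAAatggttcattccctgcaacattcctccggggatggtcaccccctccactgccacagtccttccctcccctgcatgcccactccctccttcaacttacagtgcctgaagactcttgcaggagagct

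F2 and C3 each held 1 AGGTCA match, C3 and C1r each held 2 TTNNGNAA matches, and C1qb held neither. No matches overlapped. Of 33469 rat promoters of this length, 16.2% held AGGTCA and 41.3% held TTNNGNAA, so these are common letters. The C1qb stretch held the NF-κB motif, found in 7.51% of promoters. TTCNNNGAA, a STAT-type motif in 8.87% of promoters, and TATAAA, in 14.2%, were in none of the 4. Of the promoters not shown, C4bpb held 2 TTNNGNAA matches and 1 TTCNNNGAA match, C4b held 1 AGGTCA match, and Cfi held none. A match is a description of the letters and not a binding site, and no motif of those searched was in all of F2, C1qb and C3.

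The wider complement list of 54 genes was described at gene level, with clones of one gene averaged, where positive calls made up 17.1% and negative calls 16.6% of the 2644 genes tested. Of its 13 tested genes, 4 passed as positive, 2 as negative and 7 did not. The median log2 ratio was 0.18, against 0.01 for all genes, and 0.05 against -0.03 with the position surface subtracted. Of these 13, 9 lay in left blocks. C1r, C1qc and C4bpb were 3 of the 4 positive calls, C4bpb passing at this level (adjusted p = 0.0403). The 6 genes that were not among those described above gave 1 positive call, Cr1l, a rodent membrane regulator that protects cells from complement, at 0.24, 0.70, 0.37 and 0.44 (mean 0.44 ± 0.19, SD, n = 4, limma adjusted p = 0.0188). They also gave 1 negative call, Vtn, vitronectin, a plasma protein that blocks the terminal complex, at -0.38, -1.22, -0.69 and -0.02 (mean -0.58 ± 0.51, adjusted p = 0.0397). The call of Cr1l ended without array 3 or 4 (0.46 and 0.44, adjusted p = 0.0692 and 0.0639), and that of Vtn without array 1, 2 or 3 (-0.64, -0.36 and -0.54, adjusted p = 0.0924, 0.0645 and 0.107). With the position surface subtracted Cr1l was at 0.15 ± 0.17 and no longer called, and Vtn was at -0.79 ± 0.26 and called (adjusted p = 0.00846). The genes called there were C1qb and Vtn as negative and Cfi as positive, against 4.20% positive and 13.5% negative calls over all genes.

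Of the 50 coagulation genes listed, 10 were tested, with 1 positive and 2 negative calls and a median of -0.17. Over all genes, 17.1% were positive and 16.6% negative calls, or 4.20% and 13.5% with the surface subtracted. Besides F2 the negative call was Fgb, the fibrinogen beta chain, which thrombin turns into fibrin. It was at -0.24, -0.93, -0.48 and -0.30 (mean -0.49 ± 0.31, SD, n = 4, limma adjusted p = 0.0253), lowest on array 2. The positive call was Plat, tissue plasminogen activator, which turns plasminogen into the fibrin-cutting protease plasmin, at 0.53, 0.06, 0.69 and 0.72 (mean 0.50 ± 0.30, adjusted p = 0.0217). Array 2 was near 0 for Plat and the others were well above it. The call of Fgb ended without array 3 (-0.49, adjusted p = 0.0799), and that of Plat without array 1, 3 or 4 (0.49, 0.44 and 0.43, adjusted p = 0.0808, 0.0956 and 0.0829). Neither was called with the surface subtracted, at -0.38 ± 0.33 for Fgb and 0.13 ± 0.11 for Plat, and F2 alone of the 10 was (adjusted p = 0.00528).

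**Figure D5:**
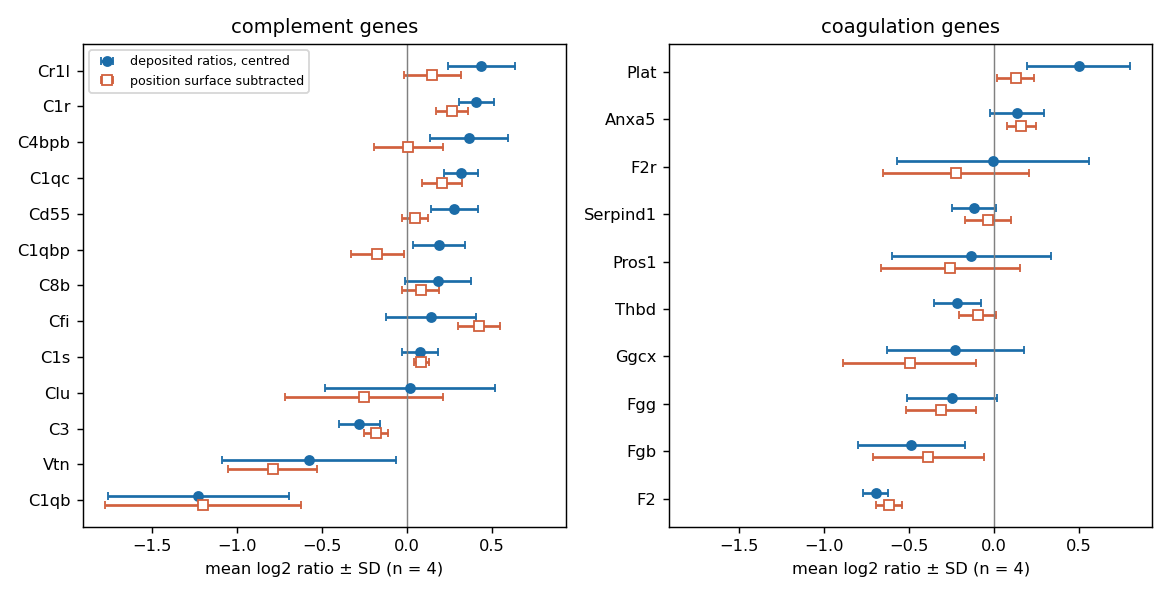
Mean log2 ratio ± SD (n = 4) of the 13 tested complement genes (left) and the 10 tested coagulation genes (right), from the deposited, centred ratios (filled circles) and with the position surface subtracted (open squares). C1qb, Vtn and F2 lie below 0 in both, and several positive means, such as those of C4bpb, Cr1l and Plat, lie nearer 0 with the surface subtracted.

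Cytokines and transcription factors that control liver secreted proteins formed a list of 51 genes, of which 12 were tested. These 12 gave 3 positive calls and 1 negative call, at a median of -0.08. For comparison, 17.1% of the 2644 tested genes passed as positive and 16.6% as negative. The cytokine genes Il1b and Tnf were positive at 0.41 ± 0.15 and 0.35 ± 0.14 (SD, n = 4), as was Cebpb at 0.43 ± 0.29, a C/EBP factor named after its value was seen because the count was small. Cebpd, another C/EBP factor that rises in the acute phase, was negative at -0.65, -0.47, -0.57 and -0.75 (mean -0.61 ± 0.12, limma adjusted p = 0.00520). It alone of the 4 was called without each single array (adjusted p from 0.00483 to 0.0302) and with the surface subtracted (-0.56 ± 0.12, adjusted p = 0.00788). With the surface subtracted the list gave no positive and 3 negative calls, against 4.20% positive and 13.5% negative calls over all genes. Il1b, Tnf and Cebpb were then at 0.23, 0.28 and 0.05 and not called. Besides Cebpd the negative calls were Stat5b and Nr3c1, the glucocorticoid receptor, at -0.37 and -0.32 (adjusted p = 0.0249 and 0.0272), both named after their values were seen.

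Hepatocyte markers were set beside C3 and F2, which hepatocytes make. Calls in this and the other marker lists stand against 17.1% positive and 16.6% negative calls over all genes. Those shares were 4.20% and 13.5% with the surface subtracted. Of 20 listed, 11 were tested, with 2 positive calls, Otc at 0.42 ± 0.23 and Rbp4 at 0.58 ± 0.55 (SD, n = 4), and 2 negative ones, Tf at -0.69 ± 0.20 and Apoh at -0.62 ± 0.41. With the surface subtracted Tf alone of the 11 was called, at -0.66 ± 0.19 (limma adjusted p = 0.00846), with Otc at 0.15, Rbp4 at 0.21 and Apoh at -0.43. The median ratio of the 11, without the surface subtracted, was -0.08, -0.94, -0.15 and -0.03 on arrays 1 to 4, so array 2 was far lower than the others. For the F2 and C3 clones array 2 was the highest of the 4, at -0.59 and -0.11. The 2 F2 spots disagreed there, at -0.85 and -0.35. Not every marker on the list was low on array 2, and Otc had its highest ratio there, at 0.75. The part of hepatocyte content in these ratios was not tested. Of the other cell types, the lists had 2 positive and no negative calls of 3 tested granulocyte and mast cell genes (Cma1 and S100a8 as positive), and 1 positive and 2 negative of 3 endothelial genes (Kdr as positive, Fcgr2b and Cdh5 as negative). They had 3 positive and 2 negative of 13 stellate cell and fibroblast genes (positive Des and Dcn, negative Acta2 and Pdgfra among them). They had 1 negative of 2 lymphocyte genes (Ms4a1), 2 negative of 3 red blood cell genes (Hbb and Epb42) and 1 positive of 1 cholangiocyte gene (Spp1). With the surface subtracted, Cma1, Acta2, Pdgfra, Hbb and Epb42 were still called. Des, Dcn and S100a8, at 0.25, 0.20 and 0.27, were not. Lum, a matrix proteoglycan named after its value was seen, became a negative call at -0.28. The stellate cell and fibroblast list then had no positive and 3 negative calls, and the endothelial, lymphocyte and cholangiocyte lists had none. Of 27 genes outside the 9, those named by rule from the lists and Cebpb, 8 were called whichever array was left out. They were Cebpd, Tf, Cma1, S100a8, Des, Acta2, Hbb and Epb42. The other calls ended without at least 1 array, and Cdh5 was at -0.46 without array 3, against -0.85 with it.

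The gene most like each clone over the 4 arrays was found by the smallest root mean square difference in log2 ratio among 2699 clones with 1 gene symbol. For C1qb it was Cyba, at -0.94, -1.38, -1.01 and -1.74 (difference 0.20, the largest of the 8). For F2 it was Ankrd55, at -0.72, -0.61, -0.61 and -0.78 (difference 0.08). For C3 it was Lto1 (0.04), for C1qc Tle5 (0.03), for C1r Tmem107 (0.03), for C1s Lamp2 (0.03), for C4bpb Prrx2 (0.08) and for Cfi Gng10 (0.02). Each of these 8 lay in the same column of printing blocks as the clone it resembled.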

How the data were processed

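Each of 4 two-colour cDNA arrays set treated liver RNA against 1 control pool. The authors' table holds a value for each spot on each array, with no unit named. The deposited values were read as a log10 ratio, because turned back to linear ratios they were whole thousandths within 0.02 thousandths for at least 99.99% of the spots on each array. How the arrays were scanned, corrected for background and normalized is not given in the sources used here. The most repeated value on each array (1171 to 1189 spots) was read as a missing ratio. Intensities were not used here, so dim and bright spots look alike, and the number of arrays limits the precision.

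Values were converted to log2, spots of one clone averaged and each array centred on its median (shifts from -0.08 to 0.03). Names came from an older platform annotation: 5169 of 7688 probes had 1 symbol, 83 several and 2436 none, and 5140 symbols were updated through the GRCr8 gene table. The 4704 clones measured on every array entered limma 3.58.1 in R 4.3.3 (lmFit, eBayes; mean against 0, two-sided, Benjamini-Hochberg over all rows, threshold 0.05). The position surface was a robust loess (span 0.05, degree 1, 4 iterations) over 8 blocks of 31 by 31 spots, a layout inferred from the values. Their autocorrelation at a lag of 31 was 0.451 on array 4, against 0.402 and 0.389 at 30 and 32. On array 2, where it was weakest, it was 0.090, against 0.071 and 0.058. This lag bears on the row width only, and no platform layout was at hand to check the 2 columns of blocks. Surrounding spots are those within 3 positions in the same block, and their median was taken on each array and averaged over the 4 arrays. The genes, lists and alternatives were chosen with earlier results of these data known. Genes outside the 9 were named by a fixed rule: up to 6 calls of each sign, by p, in the complement and coagulation lists, up to 2 in the other lists, and the nearest gene to each clone. Cebpb, Lyz2, Stat5b, Nr3c1 and Lum fall outside this rule.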

Additional observations from a re-analysis of the deposited data

Results flagged for a closer look

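Of 46 sets of 4 array values checked by Dixon's criterion for a value far from the other 3, 1 was found, and chance alone would flag about 1 set in 20. Epb42, a protein of the red cell membrane that came up as a marker gene, was at -1.17 on array 4, against -0.62 to -0.52 on the other arrays. No complement clone, prothrombin clone or difference between them met this criterion.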

How the results depend on the processing

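C1qb and F2 were negative calls under each setting that changed 1 choice, with means of -1.44 to -1.01 and -0.73 to -0.68 when 1 array was left out. With the position surface subtracted and 1 array left out, a setting added after seeing the data, F2 was called each time (-0.65 to -0.58) and C1qb 2 times of 4 (-1.43 to -0.97; not without array 2, at -1.15, or array 3, at -1.26). C1qc lost its call without centring (0.29), with the surface subtracted (0.20), with block medians subtracted (0.10) and as its own spot row (0.29), and lay at 0.27 to 0.35 with 1 array left out, or 0.15 to 0.23 with the surface also subtracted. C1r lost its call with the surface (0.26) or block medians (0.20) subtracted, and lay at 0.37 to 0.44 and 0.22 to 0.29 with 1 array left out. C3 gained a call by quantile normalization (-0.32), array weights (-0.33) and its first spot alone (-0.39), with -0.34 to -0.25 and -0.22 to -0.17 when 1 array was left out. C4bpb gained one by quantile normalization (0.37), array weights (0.42) and with the repeated value kept (0.38), lay at 0.29 to 0.47 with 1 array left out, and with the surface also subtracted lay at -0.093 (without array 1) to 0.06. Cfi gained one with the surface (0.42) or block medians (0.32) subtracted, and lay at 0.02 to 0.21 and 0.37 to 0.47 with 1 array left out. C1s was never called (0.04 to 0.11 and 0.06 to 0.10).

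The 4 calls among the 8 clones became 2 without array 1, 3 or 4 and 6 without array 2, and 1 to 4 with the surface also subtracted. All clones gave 638 positive and 706 negative calls, in sum 1344, against 665 with the surface subtracted (134 and 531) and 2359 with array weights (1148 and 1211), and 422 to 696 without array 1, 3 or 4 and 1767 without array 2 (192, 282, 327 and, without array 2, 1052 with the surface also subtracted). The positive share of the calls, 47.5%, was 20.2% with the surface subtracted and 68.2% with the repeated value kept. The complement list went from 6 calls to 3 with the surface and to 3 with block medians subtracted, and to 1 to 6 with 1 array left out. The coagulation list went from 3 to 1 with the surface subtracted and to 1 to 3 with 1 array left out. The list of liver regulators had 3 positive calls and 1 negative, against none and 3 with the surface subtracted, and went from 4 calls to 8 with the repeated value kept and to 1 to 5 with 1 array left out. C1r minus C1s was 0.28 to 0.39 with 1 array left out, and 0.18 and 0.083 with the surface and block medians subtracted. C1qb minus C1qc and F2 minus C3 were -1.79 to -1.32 and -0.44 to -0.39 with 1 array left out, and -1.15 and -0.41 with block medians subtracted. Fewer arrays give less power, and otherwise the cause was not tested. No paired analysis was possible because the arrays form 1 group whose control pool is on every array.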
